A study of Mus musculus with 8 samples.

Results

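The genes described here load peptides onto MHC class I molecules or shape the peptides that are loaded. They are the light chain B2m, the peptide transporter subunits Tap1 and Tap2, the chaperone Tapbp, the immunoproteasome subunits Psmb8, Psmb9 and Psmb10, the transactivator Nlrc5 and the heavy chains H2-K1 and H2-D1. The members were chosen by name, with earlier results of these data known, and all 10 were found among the 25239 genes of the deposited count table. The libraries came from intestinal epithelial cells (IECs) of proximal small intestinal crypts, sorted as EpCAM+CD45-CD31-Ter119-, which takes epithelium and leaves out leukocytes, endothelium and erythroid cells. To ask what the absence of CD1d, and of the natural killer T (NKT) cells that depend on it, does to the epithelial transcriptome, the study compared 4 samples of CD1d-KO mice, labelled CD1d1/2 KO, with 4 of wild-type (WT) mice, labelled C57BL/6Jax. The deletion is present in every cell of the CD1d-KO mouse, so it is not limited to IECs or to NKT cells. Mice received no treatment and were 7 to 10 weeks old by the study's methods, which give males and females of both genotypes as matched. Samples came from 2 experiments, and the labels do not tell which sample belonged to which.

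MHC class I molecules show peptides from the inside of the cell to CD8+ T cells, and in the gut to the intraepithelial lymphocytes that lie between IECs. Proteins are cut by the proteasome, TAP carries the fragments into the endoplasmic reticulum, tapasin holds the empty class I molecule at TAP, and a loaded heavy chain with B2m travels to the surface. Interferons raise most of these genes together, exchange the catalytic proteasome subunits for immune ones, and induce NLRC5, which acts on class I promoters.

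All 10 members had a lower mean in CD1d-KO than in WT IECs, and 7 of the 10 passed the test. Those were Nlrc5, Psmb9, Psmb10, Tap1, Tapbp, H2-K1 and H2-D1. No member was called higher. The mean in CD1d-KO ranged from 22.6% of the WT mean for Nlrc5 to 86.4% for B2m, and the median log2 fold change of the 10 members was -0.53, against 0.00 over the 15446 genes tested. Called means an adjusted p under 0.05 in DESeq2, and of all genes tested 2.38% were called lower. Among the 10258 genes at least as abundant as Nlrc5, the least abundant member, the share was 2.47%. In 7 of 10 members every CD1d-KO sample lay below every WT sample, which held for 5.52% of all genes tested. Because the members were chosen with earlier results known and varied together, these shares are a description and no test of the list. By edgeR's quasi-likelihood test 4 members were called, namely Nlrc5, Psmb10, Tap1 and H2-D1, where 1.07% of genes were called lower.

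Sex was not balanced in the libraries. Transcripts of 4 Y-linked genes summed to 5574 and 6946 normalized counts in CD1d-KO 1 and CD1d-KO 2 and to at most 1.05 in every other sample, so that both samples with male transcripts were of one genotype. In each of the 10 members CD1d-KO 1 and CD1d-KO 2 were the 2 lowest of the 8 samples. The same was true of 8.45% of all genes tested, and the members varied together, so these are not independent observations. Results are therefore given a second time over the 6 samples without Y-linked counts, 2 of CD1d-KO and 4 of WT mice. In that fit all 10 members were again lower and 5 were called, where 1.35% of all genes were called lower. These were Nlrc5, Psmb8, Psmb10, Tap1 and H2-D1. A fit to all 8 samples with the Y-linked counts as a yes-or-no term was also made. This term sets CD1d-KO 1 and CD1d-KO 2 apart, so the genotype difference again compares the other CD1d-KO samples with WT. Its fold changes therefore nearly repeat those of the 6 samples and are not a separate result. In it 4 members, Psmb8, Psmb10, Tap1 and H2-D1, were called, against 1.61% of all genes called lower, and Nlrc5 was not. The part of sex in the differences below was not tested beyond these fits.

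Cd1d1, the targeted gene, on chromosome 3, had 0 to 7.15 normalized counts in CD1d-KO samples and 61.1 to 91.1 in WT samples, as the labels state. None of the members lies on that chromosome. Total counts ranged from 23610266 to 31629435 per sample. As for the labelled cell type, 10 epithelial markers summed to 324685 to 362203 normalized counts with overlap between genotypes. Epcam, the sorted surface protein, had 54141 to 58699 in CD1d-KO and 52223 to 53483 in WT samples. These did not overlap, and Epcam was not called by DESeq2 (log2 fold change 0.08, adjusted p = 0.367). Nnt, a gene that C57BL/6J mice carry in a deleted form, was at 4432 to 4979 in CD1d-KO and at 1756 to 1902 in WT samples. The part of genetic background in the results was not tested.

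Promoter sequences are shown because members that move together share control elements in textbook accounts, among them the interferon-stimulated response element (ISRE), the gamma-activated site (GAS), the kappaB site and the CCAAT box. RefSeq windows of 300 bases (GRCm38.p6, which is mm10), from 250 before to 50 after the gene start, matched 8 of the 10 members, and Tap2 and Nlrc5 were not matched. Both strands were searched for AANNGAAA (the ISRE core), GAAA, any 2 bases and GAAA again (the full ISRE, which contains the core), TTCNNNGAA (GAS), GGG, any 2 bases, T, any 2 bases and CC (kappaB, which can match itself on the opposite strand) and CCAAT. The windows of B2m (chr2:122147437-122147736, plus strand), H2-K1 (chr17:34000298-34000597, minus strand), H2-D1 (chr17:35262844-35263143, plus strand), Psmb9 (chr17:34187281-34187580, minus strand) and Psmb8 (chr17:34197945-34198244, plus strand) follow, 5′ to 3′, with matches in capitals. They were chosen to show the light chain beside both heavy chains, and 2 immunoproteasome genes with different matches.
B2m: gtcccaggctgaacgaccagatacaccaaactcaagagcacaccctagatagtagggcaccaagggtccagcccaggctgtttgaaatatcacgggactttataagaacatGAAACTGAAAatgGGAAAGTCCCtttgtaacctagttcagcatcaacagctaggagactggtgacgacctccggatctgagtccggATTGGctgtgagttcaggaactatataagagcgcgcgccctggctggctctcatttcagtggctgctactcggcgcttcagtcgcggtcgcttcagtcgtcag
H2-K1: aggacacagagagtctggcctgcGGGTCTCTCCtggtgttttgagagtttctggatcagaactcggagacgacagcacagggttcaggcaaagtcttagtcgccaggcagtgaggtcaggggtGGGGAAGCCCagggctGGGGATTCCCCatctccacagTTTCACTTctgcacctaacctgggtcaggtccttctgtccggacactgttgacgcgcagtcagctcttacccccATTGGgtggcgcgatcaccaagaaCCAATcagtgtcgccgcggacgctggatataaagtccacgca
H2-D1: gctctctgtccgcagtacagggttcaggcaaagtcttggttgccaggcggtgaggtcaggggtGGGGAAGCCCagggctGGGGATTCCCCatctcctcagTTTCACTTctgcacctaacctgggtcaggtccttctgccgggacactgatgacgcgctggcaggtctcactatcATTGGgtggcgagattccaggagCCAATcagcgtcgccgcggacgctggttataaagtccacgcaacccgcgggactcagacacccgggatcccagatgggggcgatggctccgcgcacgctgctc
Psmb9: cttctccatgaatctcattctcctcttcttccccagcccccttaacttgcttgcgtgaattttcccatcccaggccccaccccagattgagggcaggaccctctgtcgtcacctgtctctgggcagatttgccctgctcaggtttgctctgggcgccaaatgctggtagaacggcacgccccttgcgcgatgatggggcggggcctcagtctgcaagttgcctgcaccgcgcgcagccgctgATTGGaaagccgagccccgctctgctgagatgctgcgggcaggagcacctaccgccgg
Psmb8: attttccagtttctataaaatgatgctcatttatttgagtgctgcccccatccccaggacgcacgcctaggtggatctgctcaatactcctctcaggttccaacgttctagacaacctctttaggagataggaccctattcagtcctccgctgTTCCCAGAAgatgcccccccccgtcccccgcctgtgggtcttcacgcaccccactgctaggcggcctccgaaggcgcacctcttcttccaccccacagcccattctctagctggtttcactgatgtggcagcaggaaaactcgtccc

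The 3 genes that form the surface molecule, B2m, H2-K1 and H2-D1, were the members whose windows held an ISRE core and a kappaB match, and each also held a CCAAT box. An ISRE core was found in 23.9% and a kappaB match in 18.4% of the 32851 RefSeq windows. In B2m the core was part of a full ISRE, at position -139 counted from the gene start, a match that 3.44% of all windows held. H2-K1 held 4 kappaB matches and H2-D1 3. In both, 3 of these lay closely upstream of the ISRE core, and the remaining match of H2-K1 lay farther upstream. The ISRE core began at position -90 in H2-K1 and -150 in H2-D1. A GAS match was present in the window of Psmb8, at position -97, and in 8.3% of all windows. The CCAAT box was held by 6 of the 8 members with a window and by 37.4% of all windows, and the Psmb10 window held none of the searched letters. Psmb9 and Tap1 lie head to head with 225 bases between their starts, so their windows have 275 bases in common and one CCAAT box is shared by both. These matches describe letters in a window and were not tested for a relation to the fold changes.

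**Figure D1:**
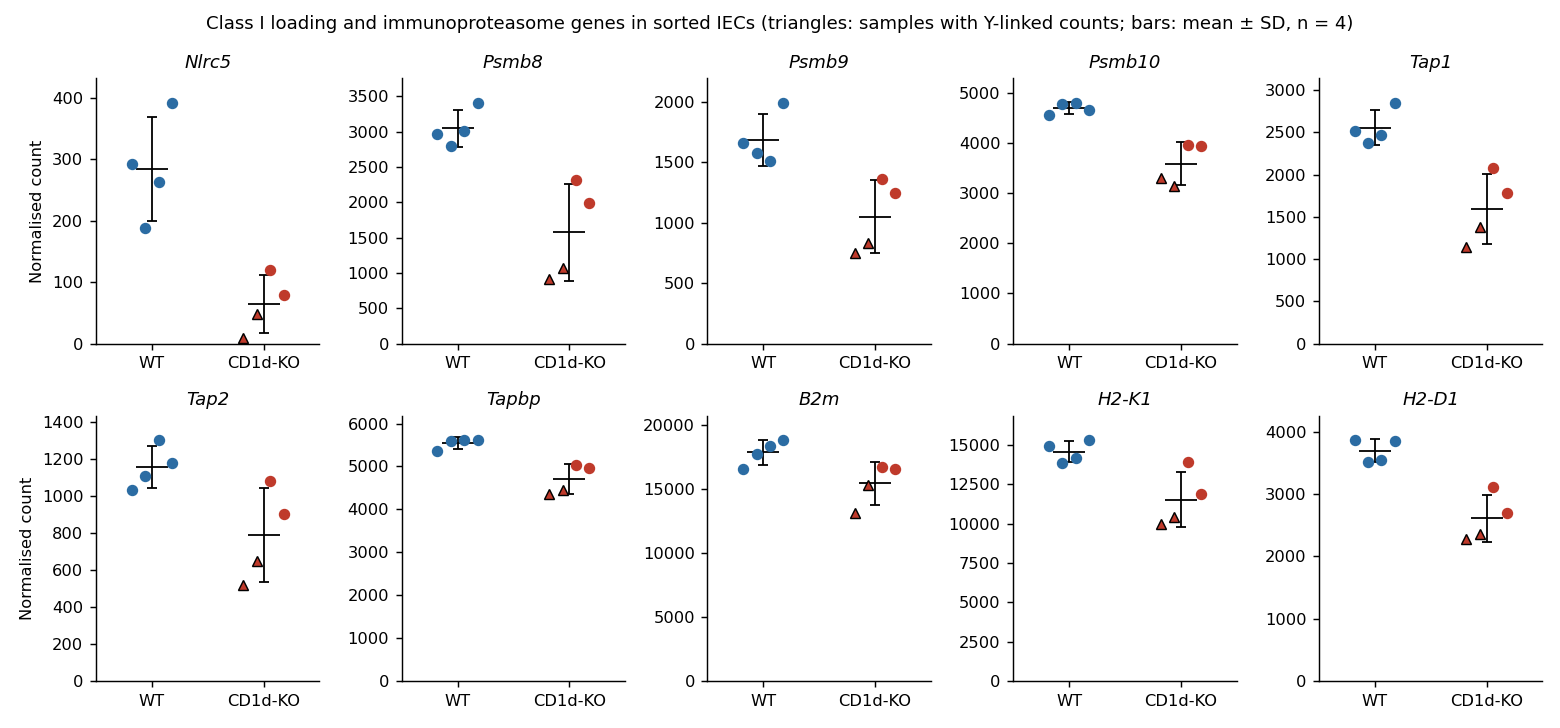
Normalized counts of the 10 members (y axes, from 0) in the 4 WT and 4 CD1d-KO samples, one panel per gene, with mean ± SD (n = 4) as bars. Triangles are CD1d-KO 1 and CD1d-KO 2, which held Y-linked counts and are the lowest points in each panel. In the panels of Tap2, B2m and H2-K1 the genotypes overlap.

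Nlrc5, the NOD-like receptor family protein that switches on class I genes from the nucleus, showed the largest fold change of the members. Its gene spans mm10 chromosome 8, 94472763 to 94527272, on the plus strand. Normalized counts were 8.94, 47.6, 120 and 79.7 in CD1d-KO 1 to 4 and 293, 188, 264 and 392 in WT 1 to 4. Every CD1d-KO sample lay below every WT sample, and CD1d-KO 1 stood far below the rest of its group. The mean fell from 284 ± 84.7 in WT to 64.1 ± 47.3 in CD1d-KO (SD, n = 4), with a log2 fold change of -2.15 ± 0.68 (SE) and an adjusted p of 0.0453. As few as 10 reads lay behind the value of CD1d-KO 1, where counting error alone is 31.6%. Leaving out 1 library ended the call for CD1d-KO 2, CD1d-KO 4 and each WT sample, with adjusted p from 0.0845 to 0.213, while without CD1d-KO 1 the adjusted p was 2.07e-07. Without CD1d-KO 1 and CD1d-KO 2 together the log2 fold change was -1.50 ± 0.27, with an adjusted p of 5.12e-06. With the Y-linked term in the fit to all samples, which rests on the same comparison, it was -1.51 ± 0.64. The call was lost there (adjusted p = 0.231).

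Mean levels of the immunoproteasome subunits Psmb8, Psmb9 and Psmb10 in CD1d-KO were 51.7%, 62.2% and 76.4% of those in WT. They take the places of Psmb5, Psmb6 and Psmb7 at the catalytic sites, and the exchange favors peptides with hydrophobic or basic ends, which suit class I grooves. Psmb8 (chromosome 17, 34198195 to 34201454, plus strand) counted 920, 1070, 2322 and 1991 in CD1d-KO 1 to 4 and 2970, 2792, 3008 and 3411 in WT 1 to 4. The groups did not overlap, and CD1d-KO 1 and 2 held less than the other 2 CD1d-KO samples, with a mean of 995 against 2156. Across the 8 samples Psmb8 was nevertheless not called, at a log2 fold change of -0.95 ± 0.32 (SE) and an adjusted p of 0.0645. It was called without CD1d-KO 3 (adjusted p = 0.00624) and in the samples without Y-linked counts, where the log2 fold change was -0.50 ± 0.11 and the adjusted p 0.000399. Without any other single library Psmb8 was not called (adjusted p 0.0580 to 0.265).

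Psmb9 (chromosome 17, 34182099 to 34187330, minus strand) had 747, 834, 1365 and 1247 normalized counts in CD1d-KO 1 to 4. The WT samples had 1657, 1580, 1513 and 1994. All CD1d-KO values were below all WT values, and WT 4 was the highest of the 8. Psmb9 fell by 0.69 on the log2 scale (SE 0.17, adjusted p = 0.00373). The call was lost without WT 1 (adjusted p = 0.169), without WT 3 (0.114) and over the samples without Y-linked counts, where the log2 fold change was -0.37 and the adjusted p 0.0740. For Psmb10, on chromosome 8 (105935728 to 105938392, minus strand) and so apart from the class I region, normalized counts were 3304, 3144, 3965 and 3931 in CD1d-KO 1 to 4 and 4554, 4766, 4802 and 4646 in WT 1 to 4. The WT values kept within a narrow range, 4692 ± 114 (SD, n = 4), and no CD1d-KO sample reached it. The log2 fold change was -0.39 ± 0.085 (SE), with an adjusted p of 0.00049, and the call held without any one library and without Y-linked samples (adjusted p = 0.0392).

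To set immune against constitutive transcripts within a library, each immune subunit was divided within a sample by the constitutive subunit it replaces, both as normalized counts per kb of exon. These are ratios of transcripts, and the subunits present in assembled proteasomes were not measured. The Psmb8 to Psmb5 ratio was 0.583, 0.805, 1.64 and 1.33 in CD1d-KO 1 to 4 and 1.97, 1.62, 1.84 and 2.23 in WT 1 to 4. CD1d-KO 3 was just above WT 2, so the groups overlapped. For Psmb9 to Psmb6 the ratio was 0.427 ± 0.095 in CD1d-KO and 0.639 ± 0.0826 in WT (SD, n = 4), and for Psmb10 to Psmb7 it was 0.794 ± 0.070 and 1.04 ± 0.0909. Neither of these ratios overlapped between genotypes. The differences in mean log2 ratio, CD1d-KO minus WT, were -0.92, -0.60 and -0.39 in this order. By an exact two-sided permutation test adjusted over the 3 pairs, p was 0.0571 for Psmb8 to Psmb5 and 0.0429 for each of the other pairs. The smallest unadjusted p the design allows, 0.0286, was reached by both of the latter, whose calls were lost without any one WT sample (adjusted p 0.0571 to 0.129). In samples without Y-linked counts the differences were -0.37, -0.33 and -0.31, and 2 against 4 samples cannot give a permutation p below 0.0667.

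**Figure D2:**
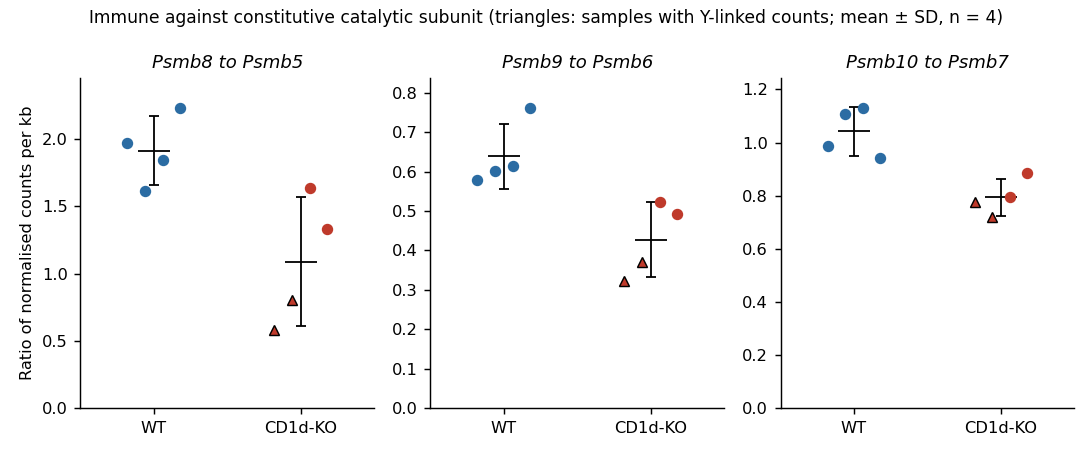
Ratio of immune to constitutive catalytic subunit in each sample, as normalized counts per kb of exon (y axes, linear, from 0), with mean ± SD (n = 4) as bars and CD1d-KO 1 and 2 as triangles. The Psmb9 to Psmb6 and Psmb10 to Psmb7 ratios do not overlap between genotypes, and the Psmb8 to Psmb5 ratio of CD1d-KO 3 (1.64) lies above that of WT 2 (1.62).

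The constitutive partners themselves were not called. Psmb5, the chymotrypsin-like subunit of the standard core, had a log2 fold change of -0.14 (adjusted p = 0.457), Psmb6, the caspase-like subunit, of -0.12 (0.455) and Psmb7, the trypsin-like subunit, of 0.00 (0.994). In WT samples Psmb8 transcripts per kb were 1.92 ± 0.256 times those of Psmb5 and Psmb10 about equalled Psmb7, while in CD1d-KO samples the corresponding ratios were 1.09 ± 0.483 and 0.794 ± 0.070.

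The peptide transporter subunits also had lower means. TAP is a heterodimer of Tap1 and Tap2 that pumps cytosolic peptides into the endoplasmic reticulum. Tap1 (chromosome 17, 34187556 to 34197225, plus strand) had 1143, 1381, 2073 and 1783 normalized counts in CD1d-KO 1 to 4 and 2517, 2375, 2470 and 2852 in WT 1 to 4. The genotypes did not overlap. Tap1 fell by 0.68 on the log2 scale (SE 0.15, adjusted p = 0.000639), to 62.5% of the WT mean, and remained called without any one library, with adjusted p up to 0.00816. Over the samples without Y-linked counts its log2 fold change was -0.40 (adjusted p = 0.00911). Tap2 (chromosome 17, 34204479 to 34216321, plus strand) counted 520, 649, 1081 and 903 in CD1d-KO 1 to 4, against 1034, 1109, 1303 and 1179 in WT 1 to 4. CD1d-KO 3 lay above WT 1, while the remaining CD1d-KO samples were below every WT sample. The log2 fold change of Tap2 was -0.55 ± 0.18 (SE), with a 95% interval of -0.91 to -0.20 and an adjusted p of 0.0548, which just missed the threshold. The adjusted p was 0.000314 without CD1d-KO 3 and 0.121 to 0.317 without any other single library. In samples without Y-linked counts the log2 fold change was -0.22, with an adjusted p of 0.542. Psmb9, Tap1, Psmb8 and Tap2 lie next to each other in 34223 bases of the class I and II region of chromosome 17.

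Tapbp encodes tapasin, which bridges the empty class I molecule to TAP and edits the peptide it takes up. On chromosome 17 (33919478 to 33929290, plus strand), it had 4353, 4457, 5022 and 4974 normalized counts in CD1d-KO 1 to 4 and 5348, 5603, 5618 and 5615 in WT 1 to 4. The genotypes were separate but close. Tapbp fell by 0.24 on the log2 scale (SE 0.066, adjusted p = 0.0128). This call was lost without CD1d-KO 1, CD1d-KO 2, WT 2, WT 3 or WT 4 (adjusted p 0.0573 to 0.117), and the adjusted p was 0.426 in the samples without Y-linked counts, at a log2 fold change of -0.15.

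B2m, the light chain common to all class I molecules and to CD1d itself, was the most abundant member. It lies on chromosome 2 (122147687 to 122153082, plus strand). Normalized counts were 13141, 15329, 16739 and 16548 in CD1d-KO 1 to 4 and 16569, 17736, 18363 and 18847 in WT 1 to 4. CD1d-KO 3 lay between WT 1 and WT 2, so the groups overlapped. The log2 fold change, -0.21 ± 0.084 (SE), was not called (adjusted p = 0.155), with a 95% interval of -0.38 to -0.05 and an unadjusted p of 0.0121. It was -0.10 (adjusted p = 0.726) without the Y-linked samples.

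The classical heavy chains H2-K1 and H2-D1 bind the peptide and are what T cells recognize. H2-K1 (chromosome 17, 33996012 to 34000347, minus strand) had 9986, 10404, 13897 and 11859 normalized counts in CD1d-KO 1 to 4 and 14949, 13865, 14161 and 15328 in WT 1 to 4. CD1d-KO 3 slightly exceeded WT 2, and the other CD1d-KO samples were below all of WT. H2-K1 fell by 0.34 on the log2 scale (SE 0.099, adjusted p = 0.0239), a call that was lost without CD1d-KO 1, CD1d-KO 2, WT 1, WT 2 or WT 4 (adjusted p 0.0525 to 0.141) and over the samples without Y-linked counts (log2 fold change -0.18, adjusted p = 0.437). H2-D1 (chromosome 17, 35263094 to 35267497, plus strand) had 2283, 2357, 3117 and 2687 normalized counts in CD1d-KO 1 to 4. In WT 1 to 4 the values were 3868, 3521, 3541 and 3844. The genotypes did not overlap, and H2-D1 had the lowest adjusted p of the members, 5.83e-05, at a log2 fold change of -0.50 ± 0.099 (SE). Without any one library the adjusted p stayed at or below 0.00157, and without Y-linked samples it was 0.0140 at a log2 fold change of -0.35.

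Counts of several members carry an added uncertainty. In the table's annotation 1060 of the 1736 exon bases of H2-D1 also belong to H2-L, and fragments touching both genes were not counted, so its level is an undercount. No other member shared exon bases with another gene of the table. All stretches of 100 bases in their transcripts (GENCODE vM39) were compared with transcripts of other genes, read on both strands. Of these stretches 31.3% for Tapbp, 12.2% for H2-D1 and 10.4% for H2-K1 had an exact match. The other genes included Zbtb22 and Gm19412 for Tapbp, H2-Q4 and H2-Q10 for H2-K1 and H2-T23 for H2-D1. B2m, Psmb10 and Nlrc5 had 0 such stretches. For Psmb9 and Tap1, whose transcripts overlap each other there, the shares were 13.8% and 8.66%, and the counting did not use strand.

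Per kb of exon, B2m had the highest level in WT IECs, 20838 ± 1147 normalized counts per kb (SD, n = 4), followed by H2-K1 at 8781 ± 409, Psmb10 at 3695 ± 89.4 and Psmb8 at 2490 ± 214. H2-D1, Psmb9 and Tapbp came next at 2128, 2092 and 2017, and neighbors among these 3 overlapped between samples. The H2-D1 level is too low, because it was divided by all 1736 exon bases although 1060 of them are shared with H2-L. Places in the order that depend on H2-D1 are therefore uncertain in both genotypes. Tap1 (866 ± 70.4), Tap2 (464 ± 46) and Nlrc5 (40.9 ± 12.2) were the lowest. In CD1d-KO samples the first 3 and the last 3 members kept these places, but Psmb8 stood by its mean at place 7 instead of place 4, at 1288 ± 562, behind Tapbp, H2-D1 and Psmb9. Its range, 752 to 1898, overlapped those of Tapbp (1583 to 1826), H2-D1 (1315 to 1796) and Psmb9 (927 to 1693), so their order is not resolved. The lowest Psmb8 levels were those of CD1d-KO 1 and CD1d-KO 2, the samples with Y-linked counts. Tap1 and Tap2 also overlapped in CD1d-KO samples.

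**Figure D3:**
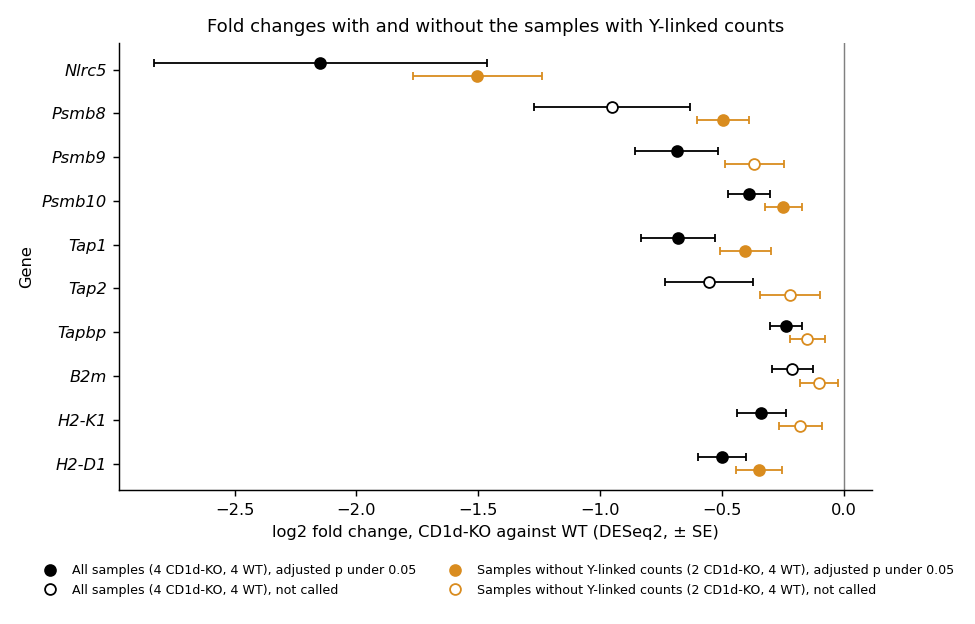
DESeq2 log2 fold change of each member, CD1d-KO against WT (x axis, ± SE), in all 8 samples (black) and in the 6 samples without Y-linked counts (orange), with filled points for an adjusted p under 0.05. All points lie below 0. Each member is nearer to 0 without the samples that held Y-linked counts, which follows from these being the lowest samples in every member. Examples are -2.15 against -1.50 for Nlrc5 and -0.95 against -0.50 for Psmb8.

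The members varied together from sample to sample. Over the 8 samples the Pearson correlation of log2 values between 2 members ranged from 0.83 for B2m and H2-D1 to 0.99 for Tap1 and Psmb8, with a median of 0.95 over 45 pairs. After the mean of each genotype was subtracted, the range was 0.62 to 0.99 and the median 0.88. These pairs share libraries and their size factors, so the values are a description. The mean of the members' centered log2 values was -0.88, -0.53, 0.06 and -0.13 in CD1d-KO 1 to 4 and 0.35, 0.27, 0.36 and 0.50 in WT 1 to 4. Thus CD1d-KO 3 came nearest to the WT samples, and the spread within CD1d-KO exceeded that within WT. CD1d-KO 1 and CD1d-KO 2, the samples with Y-linked counts, were the lowest, so most of the spread within CD1d-KO lay along that split. The WT samples have no such split. It remains after genotype means are subtracted and so is part of those correlations.

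Leukocytes carry class I molecules as well, and transcripts of leukocytes and of stomach epithelium differed between these samples. In bulk samples, fewer cells of a type and less RNA per cell cannot be told apart. The 13 counted T and NK cell markers summed to between 13.3 and 74.9 normalized counts in CD1d-KO samples and between 40.3 and 537 in WT samples, with 2 called lower. For 6 B and plasma cell markers the sums were 38.1 to 62.9 and 94.0 to 595 (2 called lower), for 10 myeloid markers 1031 to 1310 and 1357 to 1997 (2 called lower), and for 6 pan-leukocyte markers 130 to 262 and 262 to 432 (2 called lower). Itgam and Cd14 made up most of the myeloid sums and were the 2 called. The other myeloid markers had higher means in CD1d-KO, as Lyz2 (19.7 against 13.7 in WT), or lower ones, as Cd68 (118 against 161), without a call. The 11 counted stomach markers summed to 699 to 1512 in CD1d-KO and 2531 to 16455 in WT samples, and 6 were called lower. Gkn3 and Muc6 made up most of the CD1d-KO sums. Gkn3 was at 522 to 905 in CD1d-KO and 562 to 1225 in WT samples and was not called. Each of the other counted stomach markers had at most 30.3 in CD1d-KO 1 to 3 and at most 193 in CD1d-KO 4. In WT samples these ranged from 10.8 (Muc5ac in WT 1) to 3850 (Gkn2 in WT 3). Stroma and endothelium markers (55.7 to 82.9 against 53.4 to 94.2) and erythroid markers (6.84 to 13.3 against 3.88 to 15.7) overlapped between genotypes.

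A leukocyte score, the mean centered log2 value of the 4 leukocyte lists, was highest in WT 1 (1.67) and lowest in CD1d-KO 2 (-0.80). With this score as a term in the fit, all 10 members were again lower. DESeq2 called 0 of them, against 0.544% of all genes called lower. The unadjusted p was under 0.05 in 8, and the share of all genes at that threshold was not taken in this fit. In the fit without the term, 2357 of the 15446 genes tested had such an unadjusted p. The members varied together, so the 8 are a description. With the leukocyte score the log2 fold changes were -2.22 for Nlrc5, -0.70 for Tap1 and -0.45 for H2-D1. The stomach score was highest in WT 3 (4.31) and lowest in CD1d-KO 2 (-3.52). With the stomach score as a term, all 10 members were lower and 0 were called by DESeq2, against 0.386% of all genes called lower. The unadjusted p was under 0.05 in 1, again without the share of all genes at that threshold. Each log2 fold change was nearer to 0 than without the term. H2-D1 was at -0.46 and H2-K1 at -0.27. Nlrc5 was at -1.50, Psmb8 at -0.44, Psmb9 at -0.36, Psmb10 at -0.20, Tap1 at -0.42, Tap2 at -0.11, Tapbp at -0.11 and B2m at -0.01. Both scores were higher in every WT sample than in every CD1d-KO sample, so their part in the members' differences and that of the genotype cannot be told apart.

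**Figure D4:**
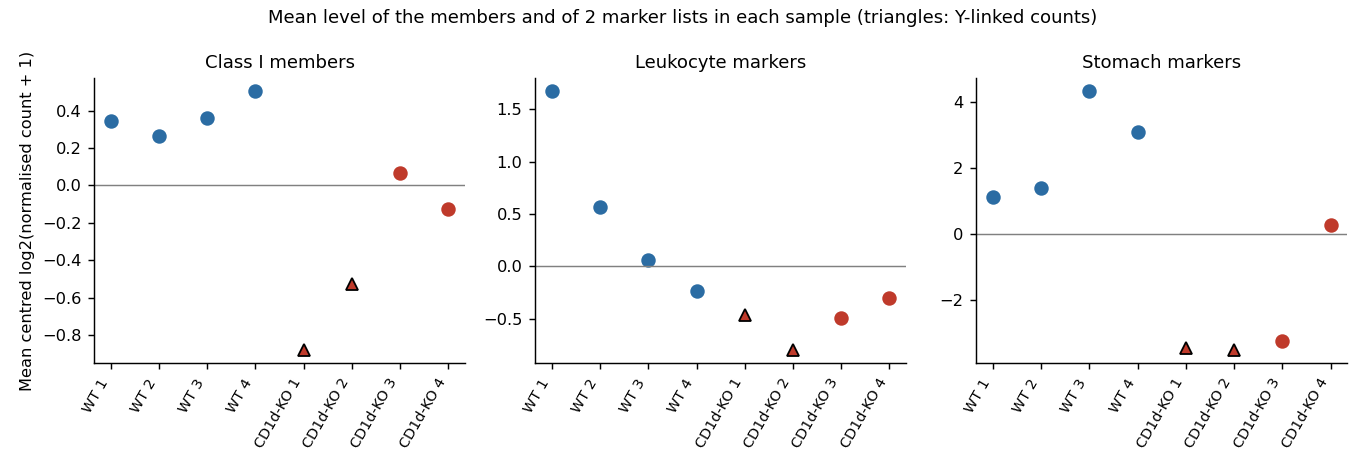
Mean centered log2(normalized count + 1) of the 10 members (left), of the 4 leukocyte marker lists (middle) and of the stomach markers (right) in each sample, with WT in blue, CD1d-KO in red and the samples with Y-linked counts as triangles. The members range from -0.88 in CD1d-KO 1 to 0.50 in WT 4. The leukocyte score ranges from -0.80 in CD1d-KO 2 to 1.67 in WT 1, and the stomach score from -3.52 in CD1d-KO 2 to 4.31 in WT 3. Both scores are higher in every WT sample than in every CD1d-KO sample.

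The wider class I pathway was described with 6 lists of 84 genes, of which 83 were tested and 4 called, all lower. That is 4.82% of those tested, beside 2.38% of all genes called lower. The peptide loading and trimming list of 14 genes had 1 called lower, Tapbpl, the tapasin-related peptide editor. Its normalized count was 1592 ± 43.2 in WT and 1225 ± 167 in CD1d-KO (SD, n = 4), with a log2 fold change of -0.38 ± 0.097 (SE) and an adjusted p of 0.00552. Sec61a1 and Sec61b, parts of the protein channel into the endoplasmic reticulum, came next by test statistic at -0.15 each (adjusted p = 0.280 and 0.364). The median over the list was -0.04. Among 10 genes of proteasome activation and assembly, Psme2, a subunit of the interferon-inducible activator PA28, was called at -0.33 (adjusted p = 0.0195), with 4354 ± 550 against 5479 ± 383 normalized counts. Its partner Psme1 had a log2 fold change of -0.22 (adjusted p = 0.0852), and the assembly chaperone Psmg2 of 0.14 (0.447). The list's median was -0.03. Psme2 has a near-identical copy in the table, Psme2b, so its count is uncertain. The Psme2 call was lost without CD1d-KO 1, CD1d-KO 2, WT 1, WT 2 or WT 4 (adjusted p 0.0723 to 0.126) and that of Tapbpl without CD1d-KO 2 (0.0577), and neither was called in the samples without Y-linked counts (adjusted p = 0.416 for Psme2 and 0.246 for Tapbpl).

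The standard proteasome showed no call. Of the 14 genes of the constitutive 20S core 0 were called by DESeq2 and the unadjusted p was under 0.05 in 0, with log2 fold changes from -0.14 to 0.03 and a median of -0.07. After Psmb6 and Psmb5, Psma5 had the most extreme statistic, at -0.13 (adjusted p = 0.512). Over all 15446 genes tested, 2357 had an unadjusted p under 0.05 in DESeq2. Of the 18 genes of the 19S regulator, which unfolds proteins for the core, 0 were called and 1 had such an unadjusted p. The median log2 fold change of this list was -0.01. The most extreme were Adrm1, a ubiquitin receptor, at -0.19 (adjusted p = 0.122), Psmd11 at 0.12 (0.496) and Psmd3 at -0.07 (0.663). By edgeR's test 0 genes of either list were called, and 2 of the 84, Irf1 and H2-Q4, were called in all.

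The transcription factors that act on class I genes had 1 call among 12, Irf1, which binds the ISRE. Irf1 counted 6656 to 7368 in WT and 4986 to 5919 in CD1d-KO samples without overlap, a log2 fold change of -0.34 ± 0.073 (SE, adjusted p = 0.000465). In samples without Y-linked counts it was -0.25 (adjusted p = 0.0647). Irf2, which binds the same element as Irf1, was at 0.19 (adjusted p = 0.141). Ciita, the class II transactivator, is outside the rule for named genes and was chosen after its values were seen. It had 48.3, 139, 495 and 408 normalized counts in CD1d-KO 1 to 4 and 714, 566, 675 and 707 in WT 1 to 4, without overlap. Its log2 fold change, the most negative of the list, was -1.29 ± 0.67 (SE, adjusted p = 0.342) in all samples and -0.56 ± 0.14 (adjusted p = 0.00645) in those without Y-linked counts, where it was the call in this list. Among 15 counted genes for other class I heavy chains, H2-Q4 was called, at 1314 ± 88.8 in CD1d-KO against 1878 ± 204 in WT (log2 fold change -0.51 ± 0.093, adjusted p = 6.27e-06), and it held without Y-linked samples (-0.43, adjusted p = 0.00955). H2-Q6 was at -1.58 (adjusted p = 0.117) and H2-T23, the mouse Qa-1 that presents class I leader peptides to NK cells, at -0.31 (0.142). The median of this list was -0.27, and its genes share sequence among themselves, so reads may have been assigned to the wrong one.

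**Figure D5:**
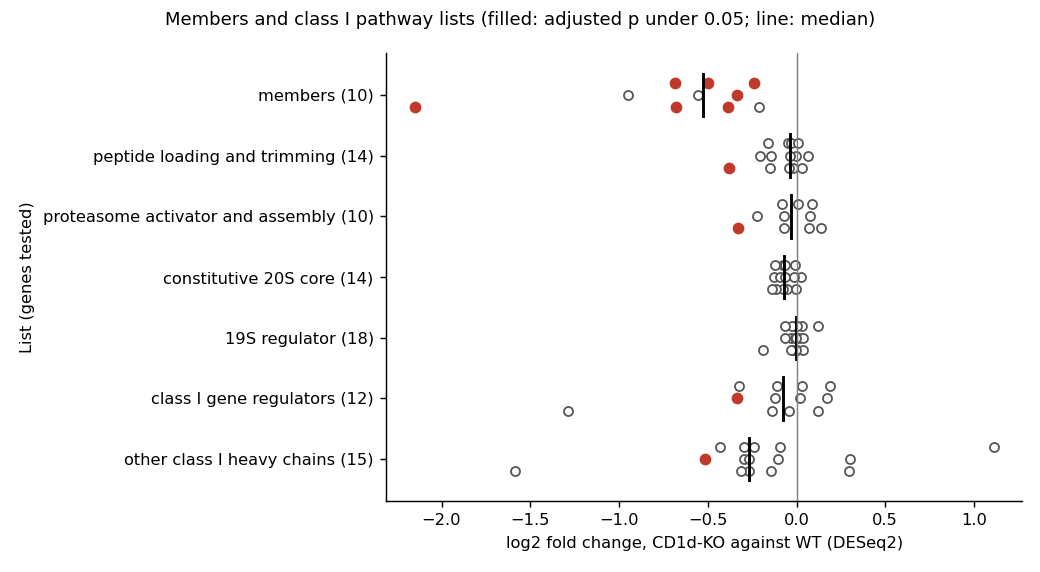
DESeq2 log2 fold change, CD1d-KO against WT (x axis), of the members and of the 6 class I pathway lists (rows, with the number of genes tested), with filled points for an adjusted p under 0.05 and a vertical line at each median. The members' median is -0.53, and the 20S core and 19S lists, with medians of -0.07 and -0.01, hold no filled point.

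The genes whose pattern over the 8 samples was most like the members' mean were sought among 11710 other tested genes with a mean normalized count of at least 50, by Pearson correlation of log2 values. The 8 highest were Gbp6 (0.990), an interferon-induced GTPase, Psme2b (0.984), a near-identical copy of Psme2, Ly6a (0.981), a surface protein, 1810037I17Rik (0.980), H2-DMa (0.979), which loads class II molecules, Irf7 (0.978), an interferon regulatory factor, Ptges2 (0.977), a prostaglandin E synthase, and H2-Q6 (0.976). These values describe 8 samples that share libraries with the members. Gbp6 had 49.2, 61.0, 115 and 99.8 normalized counts in CD1d-KO 1 to 4 and 144, 144, 134 and 183 in WT 1 to 4, with CD1d-KO 1 and 2 lowest, as in the members. Because the members' mean was lower in every CD1d-KO sample than in every WT sample, genes chosen for likeness to it tend to be lower in CD1d-KO by that choice. Of the 8 genes, Gbp6, Psme2b, Ly6a and Irf7 were called, all lower, with log2 fold changes of -0.90, -0.38, -1.74 and -0.48 and adjusted p of 0.0147, 0.0251, 0.000556 and 0.0318. H2-DMa, at 413 ± 291 in CD1d-KO against 1055 ± 143 in WT (SD, n = 4), was not called (log2 fold change -1.35, adjusted p = 0.182).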

How the data were processed

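Bulk RNA-seq libraries of sorted IECs, 4 CD1d-KO and 4 WT, were grouped by the genotype in the sample labels, 1 mouse per sample. The authors deposited raw counts of fragments per gene. Per the file headers, featureCounts 1.6.4 counted read pairs over exons of an mm10 RefSeq annotation, taking primary alignments, ignoring strand and dropping any pair that touched more than one gene. The study's methods name HISAT2 alignment to GRCm39, and coordinates here are those of the deposited table. Unused per-sample columns numbered 0.

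Genotypes were compared by DESeq2 1.42.0 (R 4.3.3), which the study's methods name, with genotype as the only term, on 25239 genes. Adjustment for multiple tests (Benjamini-Hochberg) covered 15446 tested genes, and 3638 genes with a mean count under 2.41 and 4 with outlying counts were left without an adjusted p. Normalized counts are counts divided by DESeq2 size factors. Errors of counts are SD over 4 samples, and those of fold changes are SE. P-values measure the spread between these samples. Total counts were 23610266 to 31629435, and apart from Nlrc5 the lowest count of a member, 582, has a counting error of 4.15%, which covers counting only. Counts of 2 samples of one genotype differed with a chi-square of 9.75 to 37.2 per degree of freedom over 13695 genes, above sampling noise for each pair.

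The members and gene lists were chosen with earlier results of these data known. Named genes were the 10 members, Psmb5, Psmb6 and Psmb7, the called genes and the 3 most extreme test statistics of each pathway list, and the 8 genes most correlated with the members' mean. A result that this rule would name in one pathway list is not reported here. Lists were written by hand. Alternatives were edgeR 4.0.16 (quasi-likelihood test), TMM factors, size factors outside the 50 most abundant genes, a filter of 10 counts in 4 samples, no filter, a replicate block, samples without Y-linked counts (up to 100 normalized counts), and terms for Y-linked counts, leukocyte and stomach scores, leaving out each sample, and for the ratios a pseudocount of 0.5. The fits were tested on simulated data.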

Additional observations from a re-analysis of the deposited data

Results flagged for a closer look

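Of 26 groups of 4 samples, 10 members and 3 subunit ratios in each genotype, 1 held a sample whose distance from the others was large for the range of its group. WT 1 had 5348 normalized counts of Tapbp, while the other WT samples lay between 5603 and 5618. About 1 in 20 such groups is picked out by chance. WT 1 was still above every CD1d-KO sample, of which the highest had 5022.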

How the results depend on the processing

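All 10 members were lower in CD1d-KO in each of the 18 alternative fits and in the permutation test of each member. The number called was 7 as reported, 4 by edgeR, 4 with the Y-linked counts as a term, 0 with the leukocyte score, 0 with the stomach score and 4 to 9 without any one sample, 4 of them without CD1d-KO 2 or any one WT sample. Over all genes 622 were called, and 228 by edgeR, 372 in samples without Y-linked counts, 140 with the leukocyte score, 101 with the stomach score and 323 to 646 without any one sample, the lowest without CD1d-KO 2. Of the 84 pathway genes 4 were called, and 2 by edgeR, 2 without the Y-linked samples, 2 with the Y-linked term, 0 with the leukocyte score (7 at an unadjusted p under 0.05), 0 with the stomach score (2 at an unadjusted p under 0.05) and 2 to 10 without any one sample, 2 without CD1d-KO 2 and 10 without CD1d-KO 3. The cause of these shifts was not tested. The counts at an unadjusted p under 0.05 have no share of all genes at that threshold beside them. The differences in log2 ratio ranged without any one sample from -1.15 to -0.66 for Psmb8 to Psmb5. That ratio was called only without CD1d-KO 3 (adjusted p = 0.0286 by the exact permutation test). The range was -0.71 to -0.48 for Psmb9 to Psmb6 and -0.45 to -0.34 for Psmb10 to Psmb7. In samples without Y-linked counts the last 2 were -0.33 and -0.31 and could not be called at that size. With a pseudocount of 0.5 no ratio changed its call. Exact permutation tests on single members gave p = 0.0286, the smallest possible, for the 7 members without overlap and p = 0.0571 for B2m, Tap2 and H2-K1. Counting error limits Nlrc5 in CD1d-KO 1, with 10 reads.

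Genotypes share replicate numbers, but samples of the same number deviated together in only 2 of 4 cases (correlations 0.32, -0.07, 0.26 and -0.09 over 13695 genes), and 3 of 8 samples correlated best with their own number, so the numbers were not taken as pairs. With a replicate block 10 members and 7 pathway genes were called, all lower, and 569 genes in all, of which 320 were lower. The paired differences in log2 ratio of Psmb9 to Psmb6 and Psmb10 to Psmb7 were -0.60 and -0.39. Both had p = 0.125 by an exact sign-flip test, the smallest that 4 pairs allow.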
